A study of Mus musculus with 24 samples.

Results

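The metallothioneins Mt1 and Mt2, the metal-responsive transcription factor Mtf1, the zinc exporter Slc30a1 and the zinc importers Slc39a4 and Slc39a14 were examined in the liver and colon of mice fed high-fat diets that differed in selenium and folate. The members were the genes whose name on the array equalled 1 of these 6 symbols. They were read by 11 of 41174 probes, and made up 6 of 27962 gene names. For each gene the probe with the highest mean intensity was taken as the main probe. Values of a gene are those of its main probe unless another probe is named. All mice were female C57BL/6 mice aged 12 weeks, and their dams ate the HF-low diet, high in fat and low in selenium and folate, from 7 days before mating through gestation and lactation. After weaning at about 28 days, 6 mice stayed on that diet (HF-low-low) and 6 moved to HF-suf, which is as high in fat but has enough of both nutrients (HF-low-suf), so that no group ate a low-fat diet or had a dam on a sufficient diet. Mice were fasted and re-fed before the tissues were taken. Each mouse gave RNA from whole colon and whole liver, so that there were 4 groups of 6 arrays.

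Metallothioneins are small cysteine-rich proteins that bind zinc and copper and release them again. In liver and gut their transcription is known to be driven by zinc through MTF1, which binds metal response elements in their promoters, and also by glucocorticoid, fasting and acute phase signals. Cells take zinc into the cytosol through ZIP proteins (Slc39 family) and move it out of the cell or into vesicles through ZnT proteins (Slc30 family). Slc39a4 is the importer of dietary zinc in the gut, Slc39a14 is an importer of zinc and iron in the liver, and Slc30a1 is the exporter in the plasma membrane and itself a target of MTF1.

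On each array the RNA of 1 mouse carried Cy3 and was set against a common reference that carried Cy5, with no dye swap. The labels describe this reference as a pool of RNA from both tissues of all mice. The mean log2 ratio of the 8 skeletal muscle genes was -5.38 to -2.84 and that of the pancreas acinar genes -2.94 to -1.004, below the reference on all 24 arrays, whereas an even pool of the samples would lie between them. The cause was not tested. The values below are log2 ratios of Cy3 to Cy5, and so are levels relative to that reference. They can be compared between arrays for 1 probe but not between probes. The share of spots that stood well above background in Cy3 was 26.1% to 71.9%. The colon array of HF-low-suf replicate 5 and the liver array of HF-low-suf replicate 4 stood apart, with the brightest reference signals at 17.7 and 12.3 times background. The tissue labels were borne out by markers: 6 of 6 measured hepatocyte genes were higher in liver with no overlap, and 8 of 9 colon epithelium genes were lower in liver, with Aqp8 the exception. In 2 livers genes of other tissues were high. The mean log2 ratio of 6 of 6 adipose genes was 2.84 in HF-low-suf liver replicate 1, against -1.62 to -0.36 in HF-low-low livers and at most 0.07 in the other HF-low-suf livers. The mean of 8 of 8 skeletal muscle genes was -2.84 in HF-low-suf liver replicate 2, against -4.90 to -4.07 in HF-low-low livers and at most -3.97 in the other HF-low-suf livers. Of the adipose genes, 4 were well above background on no HF-low-low liver array, and all skeletal muscle genes were well above background on every liver array. The main liver results are given with and without these 2 livers. In whole tissue, fewer cells of a type and less RNA per cell cannot be told apart.

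The main Mt1 probe lay at chr8:92769155-92769214 on the plus strand of build mm7 and was spotted 10 times on each array. Its 60 bases are shown because they carry the coding feature for which the family is named, with capitals marking 6 TGC or TGT triplets in 1 reading frame, which encode cysteine.

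Mt1 probe: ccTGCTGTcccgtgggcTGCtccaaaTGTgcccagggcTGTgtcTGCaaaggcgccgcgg

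Of 19 whole triplets in that frame, 6 were TGC or TGT. The main Mt2 probe lay on the same strand at chr8:92762515-92762574, with 6580 bases between both probes. The longest run of bases that both probes shared was 5, and their GC content was 68.3% for Mt1 and 40% for Mt2.

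Promoters are shown for the metallothioneins, whose levels moved together over mice, and for Slc30a1. The sequences are RefSeq windows of the 250 bases before each start in build GRCm38.p6, all on the plus strand, at chr8:94178839-94179088 for Mt1, chr8:94172368-94172617 for Mt2 and chr1:191906531-191906780 for Slc30a1. Capitals mark matches on either strand to TGCACNC or TGCGCNC, the letters of the core of the metal response element that MTF1 binds.

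Mt1: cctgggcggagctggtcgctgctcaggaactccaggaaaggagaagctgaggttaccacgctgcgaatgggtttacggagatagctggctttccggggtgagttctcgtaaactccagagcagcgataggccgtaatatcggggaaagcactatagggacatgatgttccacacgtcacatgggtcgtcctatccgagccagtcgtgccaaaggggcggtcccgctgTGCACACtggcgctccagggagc
Mt2: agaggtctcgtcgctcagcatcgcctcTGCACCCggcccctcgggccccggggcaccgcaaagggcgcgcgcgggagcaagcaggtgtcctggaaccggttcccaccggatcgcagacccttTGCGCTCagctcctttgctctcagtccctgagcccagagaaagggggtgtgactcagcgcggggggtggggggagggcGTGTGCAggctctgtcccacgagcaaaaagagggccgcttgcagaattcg
Slc30a1: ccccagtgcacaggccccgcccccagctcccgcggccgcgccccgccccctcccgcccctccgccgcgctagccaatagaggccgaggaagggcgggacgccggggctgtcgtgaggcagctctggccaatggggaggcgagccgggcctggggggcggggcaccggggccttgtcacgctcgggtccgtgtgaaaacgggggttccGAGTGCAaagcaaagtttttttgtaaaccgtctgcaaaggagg

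The Mt2 window held 3 matches, the Mt1 window 1 and the Slc30a1 window 1, and none was in the Mtf1 window. Of 32851 promoter windows, 21.4% held at least 1 match and 1.26% at least 3. With the 50 bases after the start included, the counts were 4 for Mt2, 3 for Mt1, 2 for Slc30a1 and 0 for Mtf1, and 1.97% of windows then held at least 3. A match is a description of letters, and no match says only that these letters are not in the window.

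The tissue comparison asked how the 6 genes differed between liver and colon of the same mice. Slc39a14 was higher in liver, Slc39a4 and Mt2 were lower, and Mt1, Mtf1 and Slc30a1 were not called by their main probes. A gene was called at a Benjamini-Hochberg adjusted P below 0.05 in limma over all probes and a fold change above 1.5. By this rule 3 of 6 main probes and 5 of 11 probes were called, against 23.6% of all probes (11.4% higher and 12.2% lower in liver). Among 14484 probes well above background on all 12 arrays of a tissue, as all 6 main probes were, 48.3% were called (21.1% higher and 27.2% lower in liver). With median centring in place of loess, 29.2% of the calls over all probes were higher in liver, against 48.3% here. In every alternative run 3 main probes of members were called, except within the slides of scan day 1, where 2 were.

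Slc39a4, the intestinal zinc importer, was 2.38-fold lower in liver (chr15:76694988-76695047, minus strand, mm7). In colon the lowest, median and highest log2 ratios were 1.14, 1.29 and 1.55 in HF-low-low mice and 1.10, 1.20 and 1.26 in HF-low-suf mice. In liver they were -0.13, 0.04 and 0.15 in HF-low-low mice and -0.30, -0.03 and 0.15 in HF-low-suf mice. All 12 livers lay below all 12 colons, and the liver of each mouse was lower than its colon by 1.002 to 1.57 on the log2 scale. The difference was -1.25 on the log2 scale (SE 0.07, 95% interval -1.39 to -1.11, limma adjusted P = 1.88e-14), and the exact sign-flip test over 12 mice gave P = 0.00049, the smallest it can give. With the Cy3 channel alone the difference was -2.11. On each of the 12 liver arrays this probe stood well above background, so that a liver signal was measured.

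Slc39a14, the hepatic zinc and iron importer, was the member that was higher in liver, by 2.49-fold (chr14:64948082-64948141, minus strand, mm7). In liver the lowest, median and highest log2 ratios were 0.63, 0.95 and 1.21 in HF-low-low mice and 0.77, 0.83 and 0.98 in HF-low-suf mice. In colon they were -1.003, -0.39 and 0.04 in HF-low-low mice and -0.66, -0.38 and -0.12 in HF-low-suf mice. The tissues did not overlap, and the liver was higher in 12 of 12 mice. The difference was 1.32 (SE 0.09, 95% interval 1.12 to 1.51, limma adjusted P = 3.77e-12, exact sign-flip P = 0.00049). The second Slc39a14 probe gave 1.33, with 5 of 12 colon arrays well above background.

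**Figure D1:**
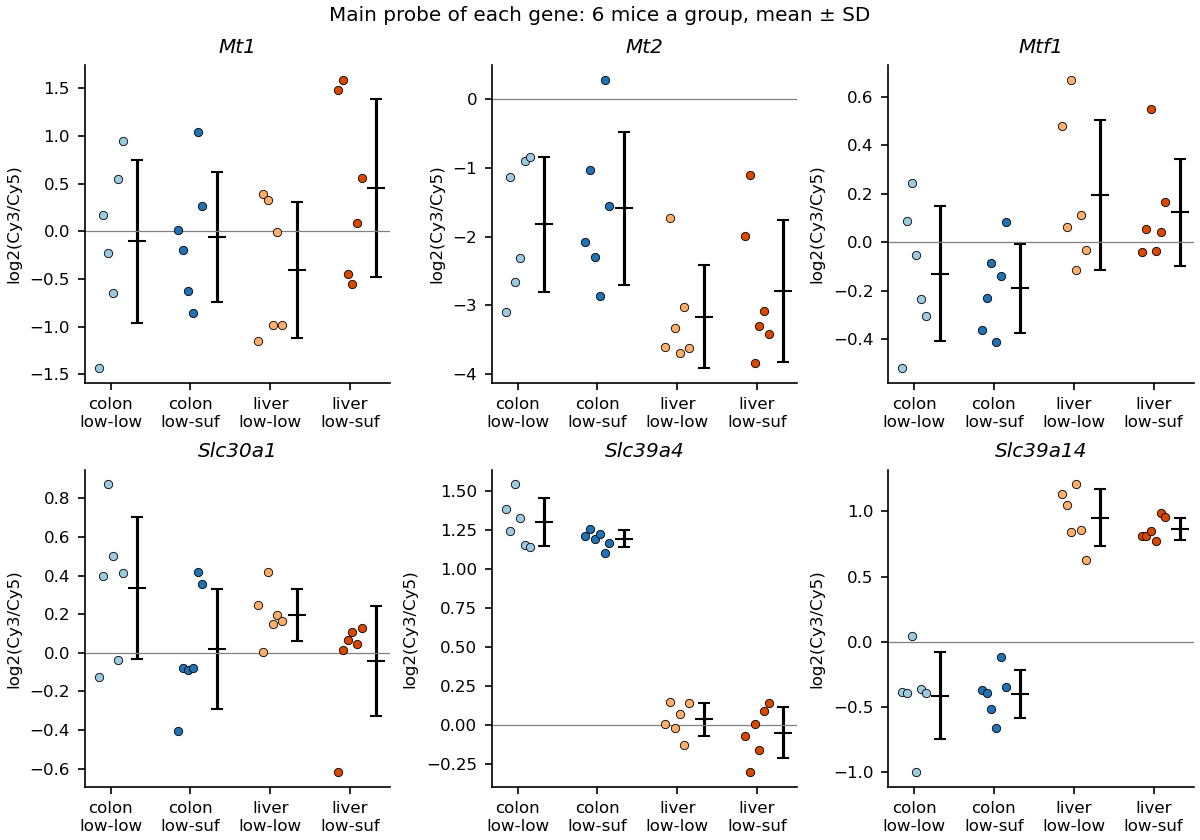
Log2 ratio of the sample to the reference (vertical axis) for the main probe of each of the 6 genes in the 4 groups of 6 mice; each point is 1 array. Slc39a4 and Slc39a14 separate liver from colon with no overlap, whereas the points of Mt1 and Mt2 spread widely within each group.

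Of the metallothioneins, Mt2 was 2.41-fold lower in liver (chr8, position above). Its lowest, median and highest log2 ratios in liver were -3.69, -3.47 and -1.72 in HF-low-low mice and -3.84, -3.19 and -1.11 in HF-low-suf mice. In colon they were -3.09, -1.72 and -0.84 in HF-low-low mice and -2.87, -1.81 and 0.28 in HF-low-suf mice. The tissues overlapped over mice, but the liver was below the colon of the same mouse in 11 of 12 mice. The difference was -1.27 (SE 0.33, 95% interval -1.94 to -0.60, limma adjusted P = 0.00229, exact sign-flip P = 0.00146). Within the slides of scan day 1 it was -0.55 and was not called (limma adjusted P = 0.407), and within day 2 it was -1.99 (limma adjusted P = 0.00325). The difference between the days was not tested. The 3 livers with the highest Mt2 were all on slides of day 1. Without the livers of HF-low-suf replicates 1 and 2 the difference was -1.58.

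Mt1 was not shown to differ between tissues. Its lowest, median and highest log2 ratios in liver were -1.15, -0.50 and 0.39 in HF-low-low mice and -0.55, 0.32 and 1.59 in HF-low-suf mice. In colon they were -1.44, -0.02 and 0.95 in HF-low-low mice and -0.86, -0.09 and 1.04 in HF-low-suf mice. All groups overlapped. The difference was 0.11 (SE 0.27, 95% interval -0.44 to 0.66, limma adjusted P = 0.813, exact sign-flip P = 0.715), and its sign turned with the second probe (-0.25), with median centring (-0.22), within scan day 2 (-0.53) and without the livers of HF-low-suf replicates 1 and 2 (-0.16). The second Mt1 probe was well above background on only 2 liver and 4 colon arrays.

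The Mtf1 probes did not agree. The main probe gave log2 ratios with a median of 0.06 in liver and -0.18 in colon, a difference of 0.32 (SE 0.10, limma adjusted P = 0.0107, higher in 10 of 12 mice) that stayed under the fold threshold and was -0.01 with median centring. A second probe was higher in liver in 12 of 12 mice, by 1.94-fold (0.96, SE 0.13, limma adjusted P = 9.17e-07), and passed. The third was well above background on no array and gave 0.09. The main probe lies 1493 bases beyond the nearest other Mtf1 probe in the direction of transcription, and the array design ties it to an expressed sequence tag. In the RefSeq table of build GRCm38.p6, 1110065P20Rik overlaps the end of Mtf1, and which transcript the main probe reads was not tested.

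The probes of Slc30a1 also differed. The main probe had medians of 0.12 in liver and 0.16 in colon and a difference of -0.10 (SE 0.11, 95% interval -0.32 to 0.12, limma adjusted P = 0.538). The second gave 0.34 (SE 0.12, limma adjusted P = 0.0304, higher in 10 of 12 mice), under the fold threshold. Slc30a1 therefore has no settled direction between the tissues.

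The other genes of the pathway were listed as 23 further metallothioneins and Slc30 and Slc39 transporters, and all 23 were measured. Of these, 1 was higher in liver, 7 were lower and 15 were not called. Among all probes 11.4% were higher and 12.2% lower. Among probes well above background on all 12 arrays of a tissue, as the called zinc genes were, 21.1% were higher and 27.2% lower. The list had a median difference of -0.22 against 0.02 over all probes. Slc30a9 was the gene that was higher, by 1.53-fold (0.62, limma adjusted P = 2.18e-05), and it fell under the fold threshold in 6 alternatives. The largest difference was that of Slc39a11, a ZIP importer (-1.63, 3.098-fold lower, no overlap). Slc39a5, known as an importer on the basolateral side of the gut epithelium, was called lower (-1.34), but stood well above background on 1 of 12 liver arrays, so that the size of its difference rests on signals near background. Slc30a4, which loads vesicles with zinc, was 2.42-fold lower (-1.27, no overlap). The others that were lower were Slc39a9 (-0.91, no overlap), Slc39a6 (-0.85), the Golgi transporter Slc30a7 (-0.78) and Slc39a3 (-0.68), of which the last 3 stood well above background on 7, 9 and 10 of 12 liver arrays. Mt3, the metallothionein best known from brain, differed by 0.09, and Mt4, known from stratified epithelium, by 0.41, and neither was called.

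**Figure D2:**
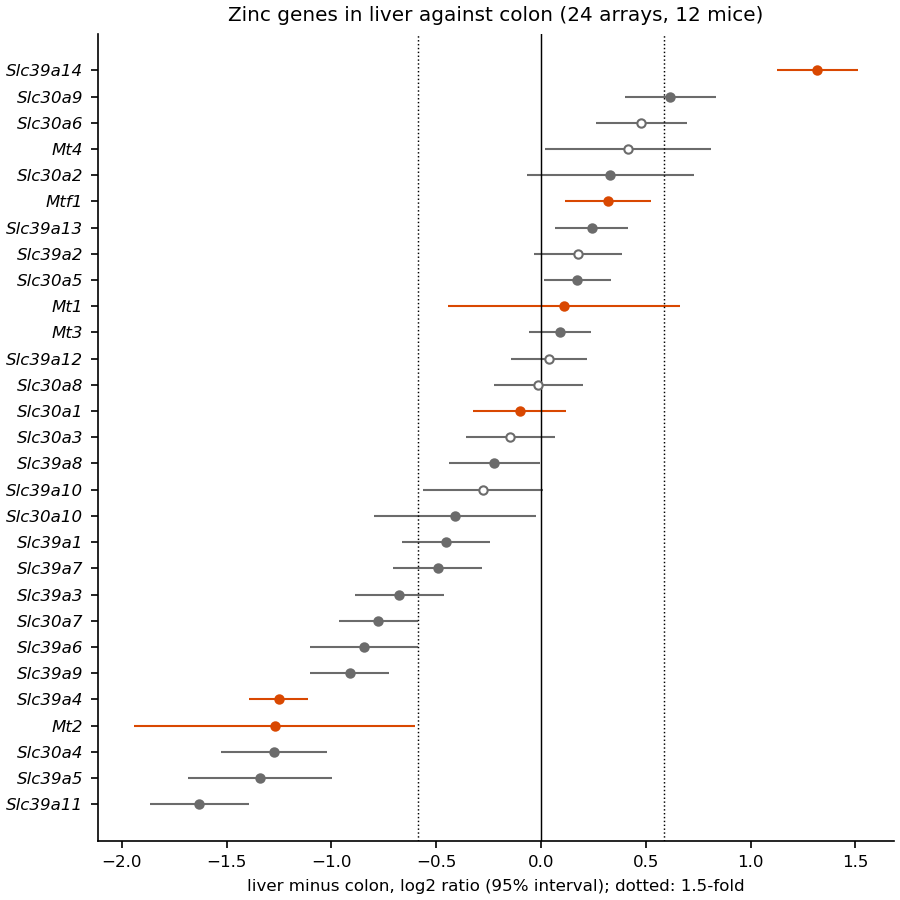
Difference between liver and colon (log2, horizontal axis) of the 6 members (orange) and of the other zinc genes, with 95% intervals; dotted lines mark 1.5-fold, and hollow points are main probes that were not well above background on all 12 arrays of either tissue. Slc39a14 (1.32) lies farthest to the right, and Slc39a11, Slc30a4, Mt2 and Slc39a4, with the dim Slc39a5, lie between -1.63 and -1.25.

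Variation between mice of 1 tissue and diet was larger for Mt1 and Mt2 than for the members Slc30a1, Slc39a4 and Slc39a14. Mt3, of the other zinc genes, had SDs of only 0.13 to 0.16 in the groups. The within-diet SD of Mt1 in liver was 0.829, above that of 98.3% of 9761 probes well above background on all 12 liver arrays, whose median SD was 0.260. That of Mt2 in liver was 0.900, above 98.8% of those probes. Mt1 ranged 6.68-fold and Mt2 6.65-fold over the 12 livers, and 3.27-fold and 4.35-fold over the 10 that leave out HF-low-suf replicates 1 and 2. In colon the SD of Mt1 was 0.774, above 99.0% of 13834 probes, and that of Mt2 was 1.05, above 99.6%. The range over 12 colons was 5.57-fold for Mt1 and 10.4-fold for Mt2, and without HF-low-suf replicate 5, the colon array that stood apart, it was 5.21-fold and 4.77-fold. The SD over the 10 spots of Mt1 on an array was between 0.00881 and 0.0499, which covers the reading of spots within 1 hybridization and leaves out labelling and hybridization.

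By their main probes, the importer Slc39a4 in both tissues and Slc39a14 in liver varied less than most probes. The within-diet SD of Slc39a4 was 0.139 in liver, above only 6.38% of probes, and 0.115 in colon, above 2.10%. That of Slc39a14 was 0.165 in liver (13.7%), and in colon it was near the middle (0.269, above 53.4%). The second Slc39a14 probe, well above background on all 12 livers, did not share the low value in liver (0.292, above 59.4%). Mtf1 was near the middle in both tissues by its main probe (0.269 and 0.236). Its second probe had 0.368 in liver and 0.369 in colon, above 76.8% and 79.9%. The SD of Slc30a1 was 0.223 in liver and 0.340 in colon. By its second probe it was 0.326 and 0.362, above 68.6% and 78.9%. Without the livers of HF-low-suf replicates 1 and 2 the liver value of the main probe was 0.0990. Without the same livers the SD was 0.622 for Mt1 and 0.577 for Mt2, still above 95.8% and 94.4% of probes. With median centring the SD of Slc39a4 was 0.476 in liver, above 67.0% of probes, and 0.374 in colon, above 55.0%, and that of Slc39a14 in liver was 0.396, above 39.8%. With Cy3 alone the SD of Slc39a4 in colon was 0.302, above 61.9%. The signals processed by Feature Extraction left these SDs low, at 0.145 and 0.112 for Slc39a4 in liver and colon and 0.178 for Slc39a14 in liver.

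**Figure D3:**
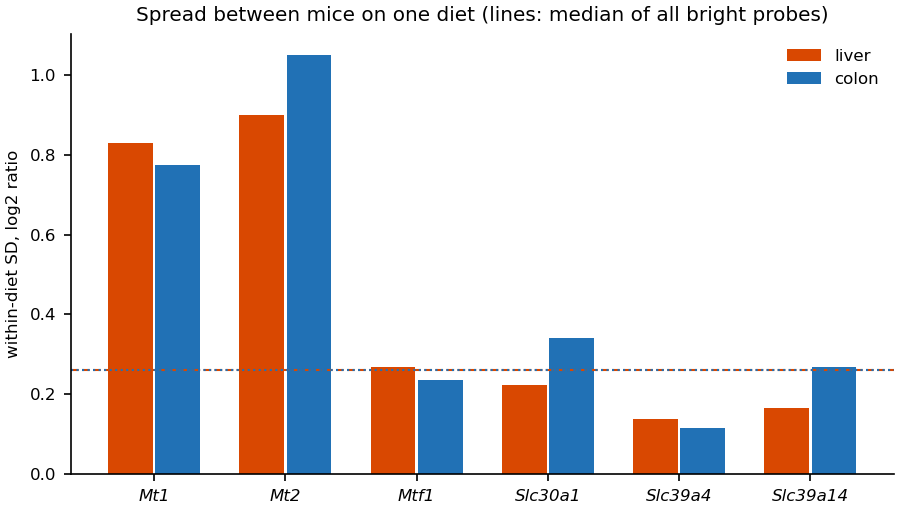
Within-diet SD of the log2 ratio (vertical axis) of the main probe of each member in liver and colon, with the median of all probes well above background on all 12 arrays of the tissue. Mt1 and Mt2 lie between 0.774 and 1.05, and the medians of all such probes are 0.260 in liver and 0.261 in colon.

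In liver, Mt2 fell into separate sets of mice. In 3 livers it was at or above -1.99 (HF-low-suf replicate 2 at -1.11, HF-low-low replicate 2 at -1.72 and HF-low-suf replicate 1 at -1.99), and in the other 9 it was between -3.84 and -3.02. Mt1 in these 3 livers was 1.59, 0.39 and 1.48. The first and last are the livers with the highest Mt1 and with high skeletal muscle and adipose genes. The part of those tissues in the metallothionein values was not tested. In the liver of HF-low-low replicate 2 these means were -0.93 for the adipose and -4.32 for the skeletal muscle genes, neither the highest of its group.

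Mt1 and Mt2 rose and fell together over mice. Over the 12 colons Pearson's r was 0.890 (permutation P = 0.00014, 0.00112 adjusted over 8 relations) and Spearman's rho was 0.930 (permutation P = 3e-05, adjusted 0.00024). It was 0.817 without the 2 mice farthest from the median of Mt1, 0.893 for the deviations from the diet means, and 0.727 and 0.951 within the scan days. Over the 12 livers r was 0.815 (permutation P = 0.00118, adjusted 0.00472) and rho was 0.720 (permutation P = 0.0104, adjusted 0.0277). Without the livers of HF-low-suf replicates 1 and 2, which were also the farthest from the median, r was 0.570 (permutation P = 0.0547), so that the relation in liver rests in part on them. Within the 9 livers with lower Mt2, r was 0.581, and the 3 others are too few for a value. Within the scan days r was 0.838 and 0.630.

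**Figure D4:**
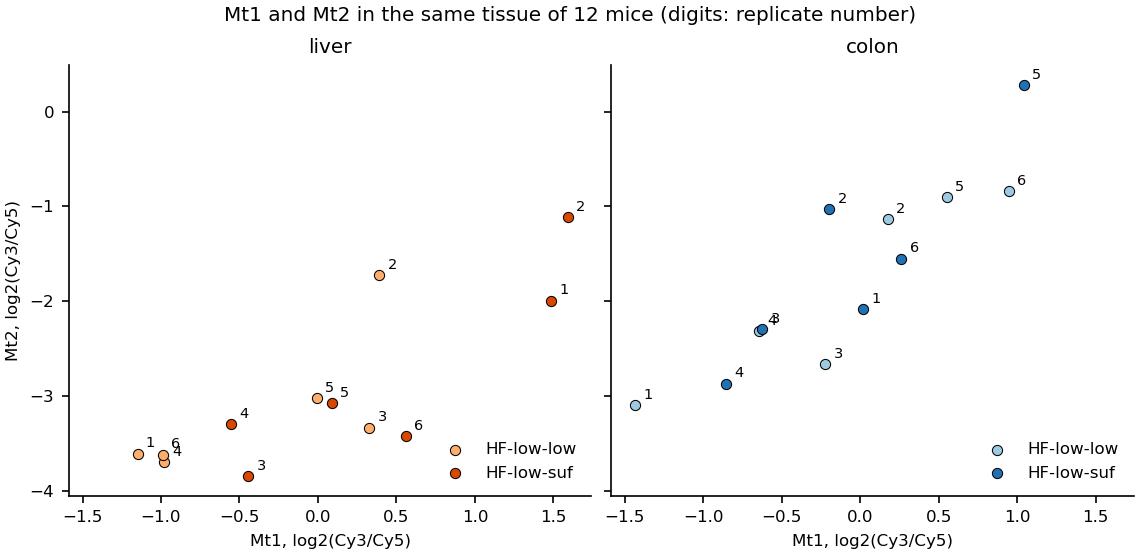
Log2 ratio of Mt2 (vertical axis) against that of Mt1 (horizontal axis) over 12 livers and 12 colons; each point is 1 mouse. The colon points rise together (r = 0.890), while 3 livers lie above the other 9, which are all at or below -3.02 for Mt2.

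The other 6 relations over mice did not pass adjustment by Pearson's r. Slc39a4 and Mt1 in colon had r = -0.594 (permutation P = 0.0395, adjusted 0.104) and rho = -0.783 (permutation P = 0.00348, adjusted 0.0139), with r = -0.761 without the 2 mice farthest from the median and -0.261 and -0.859 within the scan days. With median centring in place of loess r was 0.444 and rho was 0.140, so that this relation has no settled direction. Slc30a1 and Mt1 in liver had r = -0.562 (permutation P = 0.0520, adjusted 0.104) and rho = -0.601 (permutation P = 0.0428, adjusted 0.0857). This relation was -0.674 without the 2 mice farthest from the median of Slc30a1, -0.0684 without the livers of HF-low-suf replicates 1 and 2, and -0.131 with median centring. Slc30a1 and Mt1 in colon (r = 0.318) and Slc39a14 and Mt1 in liver (r = -0.253) had adjusted permutation P of 0.416 and 0.429, and the r of the latter was -0.0548 without the same livers, 0.00366 with median centring, -0.665 with the signals processed by Feature Extraction (adjusted permutation P = 0.0392) and -0.596 with Cy3 alone. The liver and colon of a mouse were not shown to be related, with r = 0.280 for Mt1 and 0.336 for Mt2 (adjusted permutation P = 0.429 and 0.416), and 0.455 and 0.392 without the mice HF-low-suf replicates 1 and 2. Within scan day 1 these values were 0.794 and 0.875 over 6 mice, and within day 2 they were 0.323 and 0.462. With median centring they were 0.374 and 0.5002 (rho = 0.587 for Mt2, unadjusted permutation P = 0.0482).

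Many probes followed Mt1 in colon. There 7.56% of 13793 probes had an r above 0.7 with Mt1 and 6.05% one below -0.7, and 55 had a higher r than Mt2 (117 without HF-low-suf replicate 5). The first principal component of the colon arrays, which held 30.3% of the variance, had an absolute r of 0.903 with Mt1. In liver 0.859% of 9663 probes had an r above 0.7 (0.393% over the 10 that leave out HF-low-suf replicates 1 and 2), 1.08% had one below -0.7, and 12 had a higher r than Mt2 (187 over the 10 livers). The first component in liver (35.8% of the variance) had an absolute r of 0.191 with Mt1, and the second (17.7%) had 0.475 with Mt1 and 0.648 with Mt2. The 5 gene names most like Mt1 over the 12 livers were Isg20l1 (r = 0.913), Rfxank (0.902), S3-12 (0.889), Pnpla2 (0.867) and Atp5o (0.857), among 7833 probes. Over the same 10 livers their r was 0.836, 0.733, 0.689, 0.691 and 0.723 in that order. Pnpla2 is the lipase that starts triglyceride breakdown, and S3-12 codes for a lipid droplet protein of fat cells. The mean of the adipose genes had r = 0.570 with Mt1 over the 12 livers and -0.203 over the 10, and its part in these likenesses was not tested. Over the 12 colons they were Hdac10 (0.958), Proc (0.955), Osgep (0.950), Coq4 (0.948) and Pdgfa (0.940), among 11155 probes. These values are descriptions over arrays that share their normalization.

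Lists of genes known to respond to signals that also induce metallothioneins were set beside them in liver. The acute phase list (11 of 12 genes measured) was highest in the liver of HF-low-low replicate 2, with a mean log2 ratio of 1.58, followed by 1.53 in HF-low-suf replicate 1, 1.30 in HF-low-suf replicate 6 and 1.13 in HF-low-suf replicate 2. The other livers were at most 0.946. All 3 livers with high Mt2 were thus among the 4 with the highest acute phase mean. Over the 12 livers the list had r = 0.654 with Mt1 and 0.684 with Mt2, and over the 10 livers without HF-low-suf replicates 1 and 2 these were 0.550 and 0.743. The means of other lists also moved with the metallothioneins. With Mt2 the skeletal muscle list had r = 0.688 and the B and plasma cell list 0.664 (0.298 and 0.221 over the 10 livers), and with Mt1 the hepatocyte list had -0.549 and the adipose list 0.570 (-0.433 and -0.203 over the 10). Their part in the acute phase values was not tested.

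The genes of that list most like Mt2 over the 12 livers were Orm2 and the serum amyloid genes, which code for plasma proteins made by liver in inflammation. Saa3 was 1.23, 0.61 and -0.19 in the livers of HF-low-low replicate 2 and HF-low-suf replicates 1 and 2, against a median of -0.86 and a highest value of -0.01 in the other 9. Saa1 (r = 0.654 with Mt2, and 0.743 over the 10 livers) and Saa2 (0.646 and 0.697) were alike, and these near-identical genes can share signal. Orm2, an acute phase lipocalin, had r = 0.667 with Mt2 but 0.217 over the 10 livers. Over the 12 livers fibrinogen Fgb (-0.0484), Crp (-0.0656) and Apcs (-0.403) had none above 0. With Mt1, the r of Saa1, Saa2, Saa3, Orm1 and Orm2 was 0.552, 0.540, 0.597, 0.521 and 0.636 over the 12 livers. Over the 10 livers these were 0.444, 0.406, 0.502, 0.0614 and -0.0159. Of the 11 genes, 4 had an r above 0.5 with Mt2, and over the 10 livers 4 did, with Hp in place of Orm2. Of the probes well above background on all 12 livers, 9.90% had an r above 0.5 with Mt2 over the 12 livers and 8.27% over the 10.

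The glucocorticoid and fasting list (11 of 12 measured) had r = 0.150 with Mt1 and 0.534 with Mt2, and over the 10 livers -0.423 and 0.308. Its members had correlations of both signs with Mt2. Igfbp1, a secreted binding protein that rises with fasting, was 4.19, 5.35 and 4.05 in the livers of HF-low-low replicate 2 and HF-low-suf replicates 1 and 2, against at most 3.37 in the other 9. Of the 11 genes, 3 had an r above 0.5 with Mt2, namely Cdkn1a (0.681), Pdk4 (0.671) and Igfbp1 (0.584), against 9.90% of those probes, and over the 10 livers these were 0.543, -0.0990 and 0.280. Pdk4 was 2.26 in HF-low-suf replicate 2, the liver with high skeletal muscle genes, but -2.19 and -0.61 in HF-low-low replicate 2 and HF-low-suf replicate 1, against at most -1.16 in the other 9, and without that liver its r was 0.242. The classical glucocorticoid target Tsc22d3 had r = -0.492 with Mt2, and -0.114 over the 10 livers. Tat, of the same list, had -0.144, and 0.544 over the 10 livers. Of the 11 genes, 2 had an r above 0.5 with Mt2 over the 10 livers, Tat and Cdkn1a, against 8.27% of those probes.

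The same lists were set beside the metallothioneins in colon. There the acute phase list had r = 0.306 with Mt1 and 0.404 with Mt2, and the glucocorticoid and fasting list ran the other way (-0.567 and -0.516). Without HF-low-suf replicate 5, the array that stood apart, these were 0.131, 0.200, -0.595 and -0.582. The pancreas acinar list had 0.595 and 0.668 (0.409 and 0.405 without that array), the skeletal muscle list 0.566 with Mt1 (0.491) and the adipose list -0.510 with Mt2 (0.0313). The Cy5 signal over background had 0.591 with Mt2, and -0.222 without that array. The Cy3 signal over background had 0.0274 with Mt1 and 0.263 with Mt2, and -0.633 and -0.452 without that array. The part of these in the colon values was not tested. All these correlations are descriptions, with no test.

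The diet comparison asked whether the mice moved to sufficient selenium and folate differed from those kept on the low diet. No member was called in either tissue by the rule of the methods, which asks for over 1.5-fold at P below 0.01 before adjustment. In liver 0 of 6 main probes were called, against 0.117% of all probes. In colon 0 of 6 were called, against 0.168%. No main probe had an unadjusted limma P below 0.05 in either tissue, where 2.13% of all probes had one in liver and 2.98% in colon. No probe of the array passed Benjamini-Hochberg adjustment at 0.05 in either tissue. Differences are HF-low-suf minus HF-low-low with the sample in Cy3, as the labels give it. Of the calls over all probes, 40 of 48 in liver and 66 of 69 in colon were higher in HF-low-suf by these ratios, and with plain background subtraction 19 of 55 were in liver. The paper words its diet effects mostly in the opposite direction, that on the glucose transporter gene Slc2a4 among them. It also gives myoglobin transcript and protein as higher with the adequate diet. Here 8 of 8 skeletal muscle genes, a list without myoglobin, had positive diet differences in liver (median 0.309), and none was called. Their mean was highest in HF-low-suf replicate 2. How these values bear on the labels was not tested. The direction of every diet difference below follows the labels alone, and with the diets turned each would change its sign and keep its size.

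Mt1 in liver had the largest diet difference of the members, 0.86 on the log2 scale (1.81-fold, SE 0.41, 95% interval -0.03 to 1.74, unadjusted limma P = 0.0574, exact permutation P = 0.115), from the groups given above, which overlapped. The 2 highest values, 1.48 and 1.59, were those of HF-low-suf replicates 1 and 2. Without them the difference was 0.31 (SE 0.36). Mt2 in liver differed by 0.37 (SE 0.45, 95% interval -0.58 to 1.33, unadjusted limma P = 0.416, exact permutation P = 0.483), and by -0.24 without the same livers.

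Slc30a1 in liver had lowest, median and highest log2 ratios of 0.01, 0.18 and 0.42 in HF-low-low mice and -0.62, 0.06 and 0.13 in HF-low-suf mice. The groups overlapped, and -0.62 was the value of HF-low-suf replicate 1. The difference was -0.24 (SE 0.14, unadjusted limma P = 0.118, exact permutation P = 0.0303), and -0.11 without both livers (SE 0.13). Mtf1, Slc39a4 and Slc39a14 differed by -0.07, -0.08 and -0.09 in liver, with 95% intervals that reached no further than -0.42 and 0.27.

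In colon Mt1 differed by 0.05 (95% interval -0.74 to 0.83, exact permutation P = 0.920) and Mt2 by 0.23 (95% interval -0.81 to 1.28, exact permutation P = 0.710). Neither has a settled direction, since without HF-low-suf replicate 5 they were -0.17 and -0.14. The mean of Slc30a1 was 0.34 for HF-low-low and 0.02 for HF-low-suf, a difference of -0.32 (SE 0.19, 95% interval -0.72 to 0.08, unadjusted limma P = 0.111, exact permutation P = 0.115). Its second probe gave -0.11 (95% interval -0.53 to 0.30). Slc39a4 differed by -0.11, Mtf1 by -0.06 and Slc39a14 by 0.01, with 95% intervals of -0.36 to 0.14, -0.38 to 0.26 and -0.33 to 0.36. The intervals of the metallothioneins were the widest, so that a diet effect of over 1.5-fold on them was not excluded in either tissue, nor was it on Slc30a1 in colon. By the second probes it was also not excluded on Slc30a1 in liver (-0.23, 95% interval -0.62 to 0.17). The same held for the second Mtf1 probe in colon (-0.24, 95% interval -0.66 to 0.19).

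**Figure D5:**
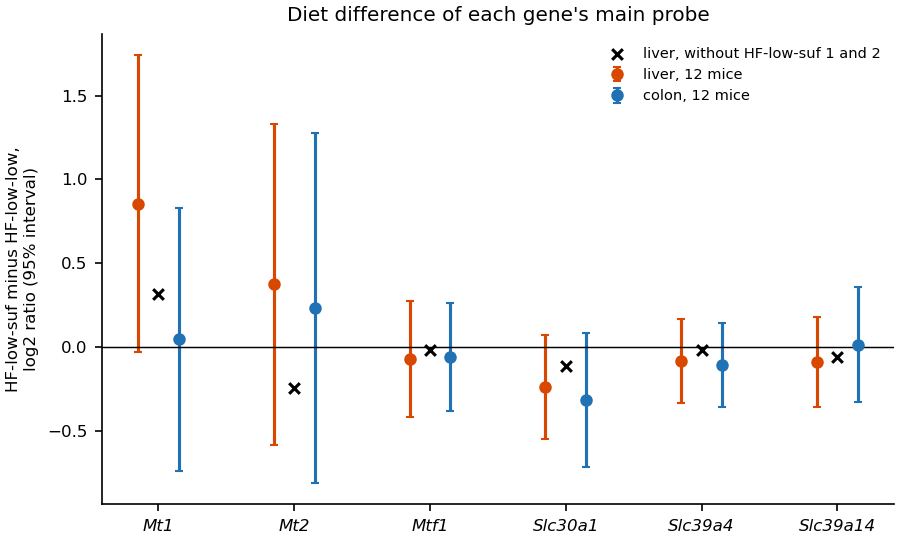
Difference between HF-low-suf and HF-low-low (log2, vertical axis) of the main probes of the 6 members in liver and colon, with 95% intervals. Crosses give the liver difference without HF-low-suf replicates 1 and 2. Every interval includes 0, and those of Mt1 and Mt2 are the widest, as for Mt1 in liver (0.86, -0.03 to 1.74).

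The diet difference was also compared between the tissues. No member was called (0 of 6, against 1.25% of all probes, 1.08% with the diet difference lower in liver, or higher with the diets turned), and none had an unadjusted limma P below 0.05, which 6.43% of all probes had. For single genes the difference of the diet differences was 0.81 for Mt1 (SE 0.54, 95% interval -0.30 to 1.92, unadjusted limma P = 0.145, exact permutation P = 0.177) and 0.14 for Mt2. It was between -0.10 and 0.08 for the other members. Without the livers of HF-low-suf replicates 1 and 2 it was 0.27 for Mt1 (SE 0.51) and -0.48 for Mt2 (SE 0.63). Of the 23 other zinc genes, none was called for diet in liver or in colon, and 2 were called for the difference between tissues, both with the lower diet difference in liver, or the higher with the diets turned. Slc39a9, a ZIP transporter, differed by diet by -0.25 in liver and 0.35 in colon, a difference of -0.60 (SE 0.18, limma adjusted P = 0.482). Slc39a12 differed by -0.42 and 0.32, a difference of -0.73 (SE 0.18, limma adjusted P = 0.427), but its probe was well above background on no array.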

How the data were processed

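RNA of colon and liver was measured on 24 arrays (Agilent 4x44k, 6 slides of 4, 1 array of each group per slide, 3 slides on each of 2 scan days). The intensity values used are those the authors deposited for each array: mean signals and median local backgrounds in Cy3 and Cy5 as quantified by Feature Extraction 9.5, before normalization. Processed intensity, which that software background subtracted and dye normalized, was deposited beside them and served as an alternative. The methods name global loess and limma.

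Signals were corrected with normexp (offset 50), control and outlier spots left out (1639 control spots of 45018), and arrays normalized by loess in limma 3.58.1 (R 4.3.3, statmod 1.5.0), giving 41174 probes. No member spot was saturated. Diets were compared within each tissue on 12 arrays. Tissues and diet by tissue were compared on 24 arrays with the mouse, named in the labels, as a random block (duplicateCorrelation, consensus correlation 0.158). The deviations of the liver and colon of a mouse from their group means correlated between -0.080 and 0.334, over 0.1 in 7 of 12 mice. Permutation tests were two-sided: all 4096 sign flips, all 924 diet assignments (these can give P as low as 0.0022), and 100000 permutations for each relation, in Python 3.11.15 with numpy 2.4.6. Figures used matplotlib 3.10.9. Replicates were separate mice, and their log2 ratios correlated between 0.655 and 0.938.

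Named were all members, other zinc genes called between tissues and well above background on all 12 arrays of the brighter tissue or called for diet, and the 5 genes most like Mt1; Mt3, Mt4 and the genes named from the response lists were chosen after their values were seen. The members, lists and alternatives were chosen with earlier results of these data known. The values over 10 livers or 11 colons that are no diet or tissue difference, the alternatives of the response lists and the relation within 9 livers were chosen after seeing the data. Probe positions are in mm7, promoters in GRCm38.p6. The fits were tested on simulated data. Arrays give no counts, so that their number limits the precision.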

Additional observations from a re-analysis of the deposited data

Results flagged for a closer look

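Each group of 6 was checked for a mouse far from the others, and 3 of 24 were found, where chance gives about 1 in 20. Mt2 in the liver of HF-low-low replicate 2 was -1.72, against -3.69 to -3.02 in the other 5. Mtf1 in HF-low-suf liver replicate 3 was 0.55, against -0.04 to 0.17. Slc30a1 in HF-low-suf liver replicate 1, the liver with high adipose genes, was -0.62, against 0.02 to 0.13.

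The diet difference of 2 other zinc genes differed between liver and colon at an unadjusted P below 0.01, by -0.73 for Slc39a12, which was well above background on no array, and by -0.60 for Slc39a9. Neither passed adjustment over all probes.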

How the results depend on the processing

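The calls of Slc39a4 and Slc39a14 between tissues held in every alternative run, and no member was called for diet in any. Mt2 was lost within scan day 1 (-0.55). With an array left out, the tissue difference was -1.43 to -1.08 for Mt2, -1.27 to -1.23 for Slc39a4 and 1.25 to 1.37 for Slc39a14, and the diet difference of Mt1 in liver was 0.63 to 1.06. Signs changed in values that were not called and in 1 relation that had passed by rank, that of Slc39a4 with Mt1 in colon, whose rho of -0.783 was 0.140 with median centring (r = 0.444). Between tissues, Mt1 was -0.16 over 10 livers, -0.22 with median centring, -0.53 within scan day 2 and -0.25 with its second probe, Mtf1 was -0.012 with median centring and Slc30a1 was 0.34 with its second probe. For diet in liver, the second Mt1 probe gave -0.16, and Mt2 gave -0.24 over 10 livers. For diet in colon, the dim Mtf1 probe gave 0.25, Slc39a4 0.039 with median centring and Slc39a14 -0.18 within scan day 1. With an array left out Mt1 in colon was -0.22 to 0.26 (below 0 without HF-low-low replicate 1 or 4 or HF-low-suf replicate 5 or 6) and Mt2 -0.14 to 0.49 (below 0 without HF-low-low replicate 1 or HF-low-suf replicate 5), and within scan day 2 they were -0.13 and -0.03. For diet by tissue, the second Mt1 probe gave -0.51, the second Mtf1 probe 0.24, and Mt2 was -0.18 to 0.52 with an array left out (below 0 without colon HF-low-low replicate 5 or 6, colon HF-low-suf replicate 4 or liver HF-low-suf replicate 1 or 2) and -0.48 over 10 livers. The causes were not tested.

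Of the 2 other zinc genes called for diet by tissue, 1 was called over 10 livers, with no background correction, with dim probes left out, with the Feature Extraction signals and within scan day 1, 0 with median centring and within scan day 2, and 1 to 2 with an array left out. Slc39a12 lost its call in 4 alternatives. Slc39a9 lost it in 13, among them the omission of colon HF-low-low replicate 4 or 6, colon HF-low-suf replicate 1, 4 or 6, liver HF-low-low replicate 4 or 5 and liver HF-low-suf replicate 1 or 2 (-0.58 to -0.54). Slc30a9 lost its tissue call in 6 (0.20 with median centring, and 0.57 to 0.58 without colon HF-low-low replicate 6, colon HF-low-suf replicate 2 or liver HF-low-low replicate 5), and Slc39a3 within scan day 1 (-0.54). With the Feature Extraction signals r with Mt1 in liver was -0.67 for Slc39a14 and -0.62 for Slc30a1 (adjusted permutation P = 0.0392 for both), where median centring gave 0.00366 and -0.131, and with Cy3 alone r of Slc39a4 with Mt1 in colon was -0.68 (adjusted permutation P = 0.0401). With median centring the within-diet SD was 0.476 for Slc30a1, 0.476 for Slc39a4 and 0.396 for Slc39a14 in liver, and 0.374 for Slc39a4 in colon, which was 0.302 with Cy3 alone.

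The mouse block changed no member's call: without a replicate block the limma adjusted P of Mt2 between tissues was 0.00575, and with a fixed replicate block 0.00151. For diet, the deviations of samples with the same replicate number, which share a slide, correlated between -0.594 and 0.605 in liver and -0.311 and 0.430 in colon, over 0.1 in 2 and 4 of 6 pairs. With this replicate block no member's call changed, and Mt1 in liver had an unadjusted limma P of 0.0584. Over all probes, calls for diet in liver went from 48 to 131 with the replicate block, 144 in 1 fit of all arrays, 24 with Cy3 alone, 12 with no background correction and 2 with median centring, with dim probes left out or within scan day 2. In colon they went from 69 to 13, 19, 26 and 3 with no background correction, Cy3 alone, median centring and dim probes left out, and to 278 within scan day 1. For diet by tissue they went from 514 to between 53 and 255 in 5 alternatives. The Feature Extraction signals moved the median tissue difference of all probes to -0.19. Signals near background limit the second Mt1 probe and Slc39a12.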

Other observations

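The Cy5 reference gave a further view of each member. Mt2 was below it on 23 of 24 arrays, with a mean ratio of 0.272 over the arrays. The mean ratio was 1.69 for Slc39a4, 1.15 for Mt1, 1.33 for Slc39a14, 1.12 for Slc30a1 and 1.02 for Mtf1, and these are not ranked, since probes are not compared. The dyes were not swapped, so a dye effect on a probe cannot be told apart from its level in the reference.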
